A study of Mus musculus with 18 samples.

Results

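Mast cells of mouse skin were followed through stretch-mediated skin expansion in single-cell 3′ mRNA libraries. They were chosen from raw UMI counts (unique molecular identifiers, 1 per captured transcript) among cells that had 200 or more detected genes and 500 or more UMIs, of which mitochondrial transcripts made up 10% or less. A cell was a member when Cpa3, Mcpt4, Cma1 and Tpsb2 together gave at least 5 UMIs from at least 2 of the genes, with no UMI of Cd3d, Cd3e or Cd3g, and with Col1a1 and Col1a2 under 1% of its UMIs. The rule found 549 mast cells among 47251 kept cells, or 1.16%, of which 348 came from control and 201 from expanded skin. They were compared, where a comparison was needed, with 15172 other immune cells.

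Every mouse had surgery with an incision near the tail and a tunnel under the skin toward the neck. Expanded mice received a hydrogel expander under the skin, and control mice received none. Skin was collected on the days labelled 1, 2 and 4, digested, and sorted by flow cytometry for cells that excluded DAPI, so that live cells of all types entered the libraries. Within each sequencing round the control mice shared a single reaction and the expanded mice another, which gave 5 control and 5 expanded libraries: 2 of each on day 1, 2 of each on day 2 and 1 of each on day 4. Hashing antibodies marked the mice in 8 of the libraries, 14 mice per arm. Strain, genotype, age and sex are not given in the sources used here. Libraries held 17726739 to 75470722 UMIs and 1927 to 8312 kept cells. The expanded library of day 2, round 2 held only 5 mast cells and was left out of gene comparisons, while the other 9 held 18 to 121.

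Mast cells are tissue-resident immune cells that depend on the receptor tyrosine kinase KIT and carry the high-affinity receptor for IgE. Their granules store proteases, histamine and, in rodents, serotonin on a scaffold of serglycin and heparin, and they release these together with cytokines and lipid mediators. In skin, the connective tissue type is known for carboxypeptidase A3 (Cpa3), the chymases Mcpt4 and Cma1 and the tryptase Tpsb2.

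The 250 bases upstream of the start of the chymase and carboxypeptidase genes are shown because these genes define the cells. Sequences are from RefSeq on build GRCm38.p6, 5′ to 3′ on the minus strand, at chr3:20242182-20242431 (Cpa3), chr14:56062311-56062560 (Mcpt4) and chr14:55944676-55944925 (Cma1), and 3 of the 4 proteases matched an entry. Capitals mark letters of the textbook GATA motif, searched on both strands as AGATAA or AGATAG, and likewise as TGATAA or TGATAG.
Cpa3: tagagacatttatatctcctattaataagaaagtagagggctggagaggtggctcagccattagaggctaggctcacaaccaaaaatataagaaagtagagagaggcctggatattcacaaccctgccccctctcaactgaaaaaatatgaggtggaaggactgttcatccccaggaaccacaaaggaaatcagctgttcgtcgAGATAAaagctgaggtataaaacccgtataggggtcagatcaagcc
Mcpt4: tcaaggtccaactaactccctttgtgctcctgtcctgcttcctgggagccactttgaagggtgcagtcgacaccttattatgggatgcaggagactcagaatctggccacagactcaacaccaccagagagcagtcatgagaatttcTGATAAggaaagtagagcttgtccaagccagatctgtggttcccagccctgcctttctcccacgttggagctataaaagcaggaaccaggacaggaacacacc
Cma1: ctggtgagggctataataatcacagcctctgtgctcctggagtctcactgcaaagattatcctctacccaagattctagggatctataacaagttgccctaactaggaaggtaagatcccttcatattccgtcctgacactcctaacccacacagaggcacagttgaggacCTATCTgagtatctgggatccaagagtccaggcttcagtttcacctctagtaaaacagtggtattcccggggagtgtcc
The match lay 46 bases before the start in Cpa3, 103 bases in Mcpt4 and 79 bases in Cma1, where AGATAG was on the opposite strand. Each window held 1 match. Of 32851 promoter windows of the same length, 26.5% held at least 1 of these motifs, so a match is common and is a description of letters only. Gata2, which encodes a GATA factor of the mast cell lineage, had a UMI in 72.3% of mast cells and in 0.936% of other immune cells.

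Members carried a median of 47 protease UMIs, up to 1209, which made up a median of 2.49% and at most 15.8% of a cell's UMIs. Cma1 had a UMI in 99.5%, Cpa3 in 98.7%, Mcpt4 in 98.5% and Tpsb2 in 84.3% of members, and 452 cells had all 4. These values chose the cells and are given without a test. Few cells stood near the threshold: 535 members had at least 10 protease UMIs, 2 members had 5 and 2 had 6, and outside the threshold 2 cells had 4 and 2 had 3. The conditions on Cd3 and on collagen removed 25 and 23 cells from the members. Those that met the definition of other immune cells stayed in that pool, and their part in its values was not tested. A UMI of at least 1 of the 4 genes was also present in 3.13% of other immune cells.

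Markers outside the rule matched the label. Ms4a2, the beta chain of the IgE receptor, had a UMI in 76.1% of mast cells and 0.402% of other immune cells. Hdc, which makes histamine, was present in 83.8% against 11.3%, Kit in 72.7% against 8.83%, and Cyp11a1, a steroid-synthesis enzyme, in 82.7% against 0.863%. Mrgprb1, a receptor of the Mas-related family, was present in 73.8% against 0.178%, and Tph1, which makes the serotonin precursor, in 65.2% against 0.264%. The IgE-binding chain Fcer1a was found in 34.6% and Mrgprb2, the receptor for basic secretagogues, in 15.7%. Mast cells had fewer UMIs per cell than other immune cells in every library, so a missing UMI does not show a missing transcript. The mucosal protease Mcpt1 and the basophil protease Prss34 had 0 UMIs in all members, and the basophil protease Mcpt8 was found in 1.82%. Other such genes were present. Mcpt2, also a mucosal protease, had 7 UMIs in 406 members and 3 in another 138, over 9 libraries. A list of 4 basophil markers summed to 95.1 to 187 per 1000000 mast-cell UMIs in control libraries. In the 5 expanded libraries the sum was 127 to 401. Of the 4, only Itga2b had enough UMIs to be tested between arms.

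Other cell types left traces. Doublet callers marked 26 members, and 26 members took at least 1% of their UMIs from markers of other lineages. In the day 4 control library 7 of 45 members were called doublets, and Cd74, which belongs to antigen-presenting cells, reached 4357 per 1000000 mast-cell UMIs there. No member barcode occurred among members of a second library, although 263 barcodes of kept cells did occur in 2 libraries, 9 of them barcodes of members.

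The 4 proteases were abundant in both arms. Levels are counts per 1000000 summed mast-cell UMIs of a library (CPM), a scale that needs no gene length in a 3′ assay. Mcpt4 ran from 7606 to 16440 CPM in the 5 control libraries and from 8121 to 11760 in the 4 expanded libraries. Cpa3 ran from 5221 to 10770 and from 5598 to 6896. Cma1 was at 5802 to 12560 in control and 6237 to 12940 in expanded skin, and Tpsb2 at 1661 to 2990 and 1581 to 4450. The arms overlapped for all 4 genes. Cpa3 (chr3:20215620-20242181), Mcpt4 (chr14:56059629-56062313), Cma1 (chr14:55941451-55944675) and Tpsb2 (chr17:25366305-25369098) are protein-coding genes of GENCODE M21 on mm10. Reads of near-identical relatives, such as Cma2 near Cma1 and Tpsab1 near Tpsb2, may be split uncertainly between them.

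The share of mast cells was lower in expanded mice on day 2 and varied widely otherwise. On day 1, control libraries held 2.08% (95% Wilson interval 1.74 to 2.48) and 1.13% (0.925 to 1.38), and expanded libraries 2.51% (2.00 to 3.13) and 0.800% (0.602 to 1.06). On day 2 the control libraries held 2.29% (1.74 to 3.004) and 0.650% (0.474 to 0.891), and the expanded libraries 1.68% (1.30 to 2.17) and 0.260% (0.111 to 0.606). On day 4 the values were 0.599% (0.448 to 0.801) and 0.526% (0.333 to 0.830). Intervals cover counting error only. The mean was 1.35% ± 0.792 in control and 1.15% ± 0.925 in expanded libraries (SD, n = 5 each), a difference of -0.195 percentage points (two-sided exact permutation test, p = 0.706, adjusted over 5 share tests 0.857, smallest possible p 0.00794). Expanded skin was lower in 4 of 5 pairs of the same day and round.

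**Figure D1:**
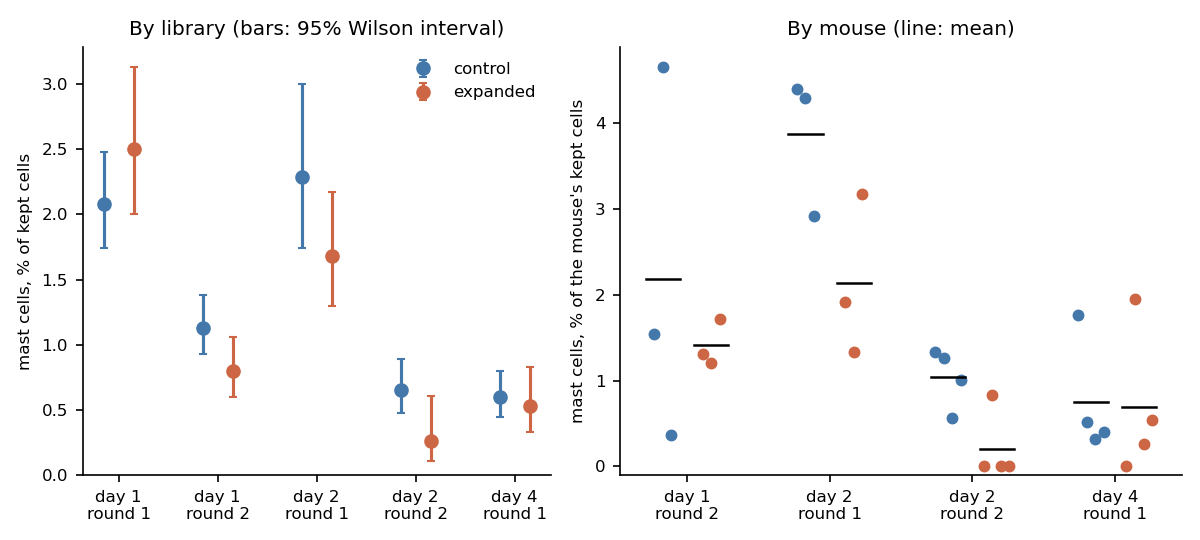
Mast cells as a percentage of kept cells, by library (left, with 95% Wilson intervals) and by mouse (right, points are mice and lines are means), for control (blue) and expanded (orange) skin. On day 2 round 2, 3 of 4 expanded mice sit at 0, and single mice stand above their group on days 1 and 4.

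Mice separated by their hashing antibodies gave the finer view, with 330 of 354 hashed members assigned to a mouse. On day 2, round 1, control mice held 4.39%, 4.29% and 2.91% mast cells, and expanded mice 1.91%, 1.33% and 3.17%. On day 2, round 2, control mice held 1.33%, 1.27%, 0.566% and 1.01%, and expanded mice 0%, 0.828%, 0% and 0%. A count of 0 among 281, 243 and 281 cells allows up to 1.07%, 1.235% and 1.07%. In round 1, 2 of 3 expanded mice lay below every control mouse, and in round 2, 3 of 4 did, while the ranges overlapped in both.

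Over day 2 the mean was 2.25% ± 1.60 in control and 1.03% ± 1.202 in expanded mice (SD, n = 7 each), a difference of -1.22 percentage points. An exact two-sided permutation test within sequencing rounds gave p = 0.00714, or 0.0357 adjusted over the 5 share tests. All mice of an arm and round shared a reaction, so mouse and reaction cannot be told apart within a round. The call was lost when cells under 1000 UMIs were left out and the others thinned to 1000 before the rule was applied (-0.563 percentage points, exact permutation p = 0.0957). On day 2, 34 of 50 and 21 of 38 control members had 1000 or more UMIs, against 52 of 57 and 5 of 5 expanded members. The call was also lost in each round alone (exact permutation p = 0.0571 in round 2, and p = 0.2 in round 1, where 3 mice per arm cannot go below 0.1).

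Other days did not show a difference beyond the spread of mice. On day 1 control mice held 1.55%, 4.65% and 0.363% and expanded mice 1.31%, 1.21% and 1.72% (difference -0.776, exact permutation p = 0.8, n = 3, smallest possible 0.1). On day 4 the control mice held 1.76%, 0.518%, 0.323% and 0.398% and the expanded mice 0%, 1.95%, 0.262% and 0.545% (difference -0.0595, exact permutation p = 0.857, n = 4, smallest possible 0.0286). Single mice carried several libraries: on day 1, round 2, 1 control mouse gave 79.1% of the assigned members and 1 expanded mouse 75.6%, and on day 4 1 mouse gave 64.9% in control and 68.8% in expanded skin. Over all days the difference was -0.793 percentage points (1.81% ± 1.59 against 1.02% ± 0.960, SD, n = 14 each; two-sided permutation test, p = 0.0322, adjusted 0.0805). Without day 2 it was -0.366 (permutation p = 0.619). With cells under 1000 UMIs left out and the others thinned to 1000 it was -0.208 (permutation p = 0.404). A share falls when mast cells are fewer or other cells are more numerous, and these cannot be told apart here.

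The median UMI count of mast cells was lower in control than in expanded skin in 4 of 5 pairs, a difference that did not pass after adjustment. It was 1869, 1024, 1308, 1058 and 1663 UMIs in control libraries and 3364, 1907, 4184, 3689 and 1446 in expanded libraries. The arms overlapped, and the day 4 pair went the other way. Values follow the order of day 1 (rounds 1 and 2), day 2 (rounds 1 and 2) and day 4, here and in later lists of libraries. The means were 1384 ± 372 and 2918 ± 1182 (SD, n = 5 each; two-sided exact permutation test, p = 0.0318, 0.0794 adjusted over 4 measures chosen after the values were seen, the protease share included). Other immune cells of the same libraries had medians that averaged 7120 ± 1619 and 8049 ± 2357 UMIs (SD over 5 libraries; p = 0.476 by the exact permutation test). The mast cell median was 0.195 ± 0.0300 of that of other immune cells in control and 0.366 ± 0.119 in expanded libraries (SD, n = 5 each; exact permutation p = 0.0397, adjusted 0.0794). The median protease share of UMIs averaged 2.69% ± 0.414 in control and 2.17% ± 0.514 in expanded libraries (SD over 5 libraries). It rests on the genes that chose the cells. Its test entered the adjustment over 4 measures but is not read as a result.

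**Figure D2:**
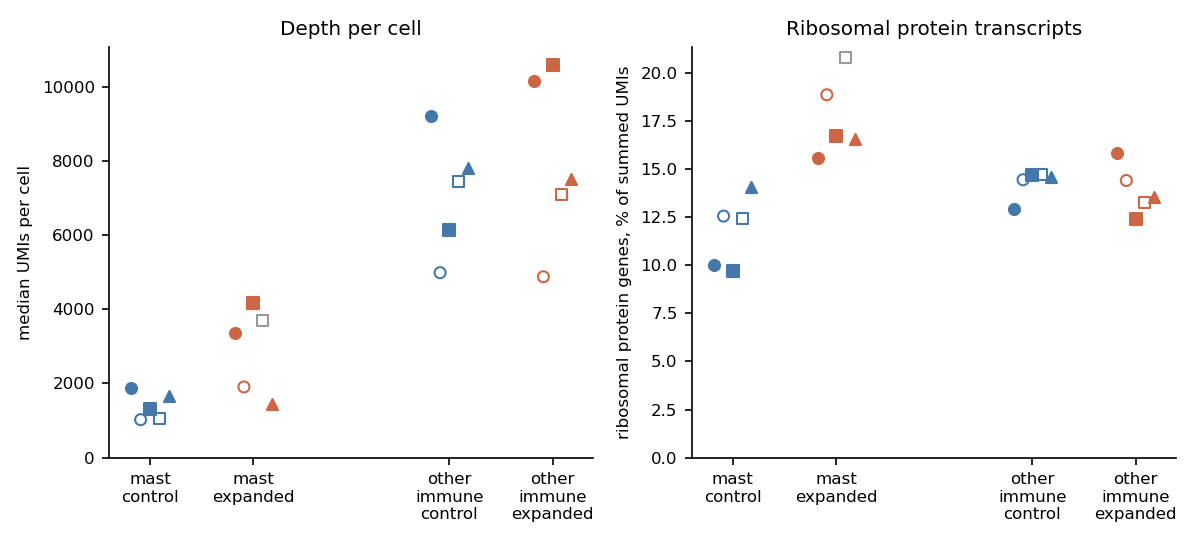
Median UMIs per cell (left) and the percentage of summed UMIs from cytosolic ribosomal protein genes (right) in mast cells and other immune cells, 1 point per library. Circles are day 1, squares day 2 and triangles day 4. Filled points are round 1, open points round 2, and the grey point is the library with 5 mast cells. Ribosomal shares of mast cells lie at 9.73 to 14.1% in control and at 15.6% or above in expanded libraries.

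In expanded skin, mast cells carried more Ctla2a and Spns1 and less Nfkbia, Apoe, Slc5a3 and Hspa1a transcript. Mast-cell UMIs were summed per library and 5 control were compared with 4 expanded libraries, with day as covariate. Of 2363 genes tested outside the rule, 2 rose and 4 fell by edgeR's quasi-likelihood test at an adjusted p of 0.05, which is 0.254% of the genes (0.0846% higher and 0.169% lower). With libraries paired by day and round in a replicate block, 11 genes passed, the 6 among them (0.169% of the genes higher and 0.296% lower), and DESeq2 called 36 of the same genes (0.677% higher and 0.846% lower). Before adjustment, 194 genes were higher (8.21%) and 207 lower (8.76%) at an unadjusted p of 0.05, or 17.0% in all. By sign alone, 48.5% of the genes were higher and 51.5% lower. The groups did not overlap for 105 genes (4.44%), of which 2.33% of those tested were higher and 2.12% lower.

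Ctla2a (chr13:60934155-60936625), which encodes an inhibitor of cathepsin L-like proteases, was at 454, 503, 582.5, 1568 and 1225 CPM in control libraries. In expanded libraries it was at 1194 and 2375 CPM on day 1, 7433 on day 2 and 3523 on day 4. Every expanded library exceeded its paired control, and the groups overlapped between 1194 and 1568 CPM. The log2 fold change was 2.11 ± 0.326 (SE; edgeR adjusted p = 0.0144). Its neighbour in sequence, Ctla2b, had 1.83 ± 0.510 (SE; adjusted p = 0.108), and reads of the 2 genes may not be told apart. Without the expanded library of day 2, round 1, Ctla2a stood at 1.78 with an adjusted p of 0.0763, and without that of day 1, round 2, at 1.93 with 0.0530. Among mice with at least 5 mast cells, 11 control mice had a median of 546 CPM (148 to 3007) and 6 expanded mice 4515 CPM (437.5 to 12780). The expanded mice of day 2, round 1, which shared a reaction, were at 5780, 12780 and 9482 CPM. The other expanded mice were at 437.5, 3250 and 2258 CPM.

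Spns1 (chr7:126370060-126377450), a lysosomal lipid transporter, was at 86.3 to 187 CPM in control libraries and at 215.6, 280.0, 388 and 494 CPM in expanded libraries, without overlap. That is 1.38 ± 0.257 on the log2 scale (SE; adjusted p = 0.0353 by edgeR). The median per mouse was 93.8 CPM (0 to 437) in 11 control mice and 383 CPM (131 to 605) in 6 expanded mice, ranges that overlap.

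Nfkbia (chr12:55489410-55492647), the inhibitor that NF-kappaB induces to shut itself off, was at 905, 1891, 2045, 2045 and 1490 CPM in control mast cells. It was at 515.5, 541, 804 and 527 CPM in expanded libraries. Every expanded value lay below every control value, and the log2 fold change was -1.40 ± 0.268 (SE; edgeR adjusted p = 0.0368). Slc5a3 (chr16:92058322-92087473), which imports the osmolyte myo-inositol, ran from 94.9 to 309.1 CPM in control and from 9.66 to 37.5 CPM in expanded libraries. It fell by 2.38 on the log2 scale (SE 0.434; edgeR adjusted p = 0.0342). Both groups of libraries were again apart. Slc5a3 passed the filter on low counts through its control libraries, and its expanded values lay near the floor. Among mice with at least 5 mast cells the arms overlapped for both genes. Nfkbia ran from 300 to 4355 CPM in 11 control mice and from 288 to 944 CPM in 6 expanded mice. Slc5a3 ran from 0 to 622 and from 0 to 121 CPM. Each expanded mouse held only 0 to 5 UMIs of Slc5a3.

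Hspa1a (chr17:34969190-34972156), an inducible heat shock chaperone, was at 177.9, 179.7, 107.0, 102 and 75.95 CPM in control and 28.1, 38.6, 17.6 and 32.9 CPM in expanded libraries. It fell by 2.39 on the log2 scale (SE 0.377; edgeR adjusted p = 0.0144), and its near-identical copy Hspa1b stood at -2.08 ± 0.512 (SE; adjusted p = 0.0769). Apoe (chr7:19696109-19699188), which carries lipids, ran from 968 to 1756 CPM in control and from 230.5 to 772.5 CPM in expanded libraries. Its log2 fold change was -1.49 ± 0.258 (SE; edgeR adjusted p = 0.0266). All 6 genes moved the same way in 4 of 4 pairs, which was part of the rule for naming genes and rests on the libraries that called them. Among mice with at least 5 mast cells, Hspa1a ran from 0 to 199 CPM in control and from 0 to 51.3 CPM in expanded mice. Apoe ran from 504 to 5851 and from 117 to 1313 CPM, so the arms overlapped by mouse for both. Each expanded mouse held only 0 to 3 UMIs of Hspa1a, which also passed the filter on low counts through its control libraries.

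Apoe and Hspa1a had like changes outside mast cells, at -1.77 and -1.85 on the log2 scale in other immune cells of the same libraries (edgeR adjusted p = 0.0732 and 0.00712). Apoe had a UMI in 65.4% of non-immune cells and Hspa1a in 59.9%. Fibroblast markers moved with them: of 7 markers, 5 were tested and 5 were lower in expanded mast cells, with a median log2 fold change of -1.58 and a summed share of 0.0654 to 0.252% of mast-cell UMIs in control and 0.0135 to 0.0991% in the 4 tested expanded libraries, ranges that overlap; 1 of the 7 was at 0 in every library. In other immune cells the same 5 had a median of -2.27. In members with under 1% of UMIs from other-lineage markers, Apoe stood at -1.49 with an adjusted p of 0.0117, while Hspa1a fell under the filter on low counts. In those members 4 of 5 fibroblast markers were still lower and 1 was higher, with a median of -2.61. For both genes, Apoe and Hspa1a, the part of RNA from other cells was not tested. Each of the 6 calls was lost in some fit that left out 1 library: Ctla2a in 2 of 9, Hspa1a in 4, Apoe and Slc5a3 in 6, Nfkbia in 7 and Spns1 in 8, with adjusted p-values of at most 0.171.

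**Figure D3:**
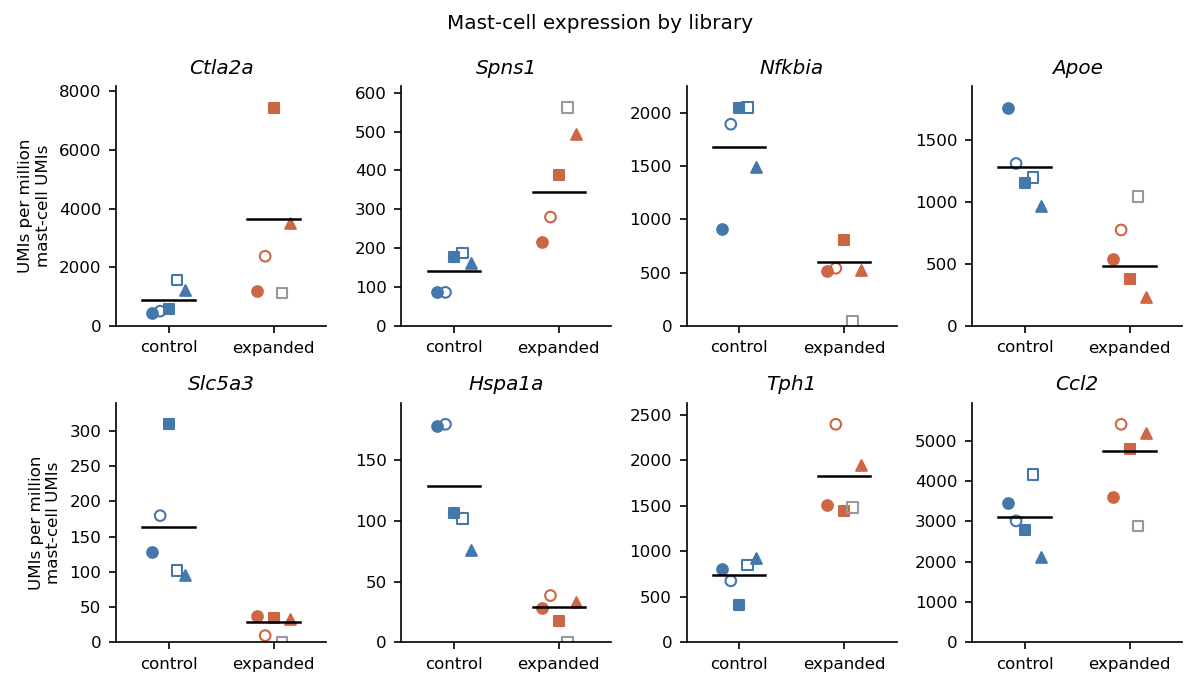
Expression of the 6 genes that passed the test, and of Tph1 and Ccl2, as UMIs per 1000000 mast-cell UMIs in each library. Circles are day 1, squares day 2 and triangles day 4. Filled points are round 1, open points round 2, the grey point is the library with 5 mast cells, and lines are means of the libraries tested. Spns1, Nfkbia, Apoe, Slc5a3, Hspa1a and Tph1 show no overlap between tested groups.

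Of 20 genes of mast cell identity outside the rule, edgeR called none between arms without the replicate block. With the block, and with DESeq2, 1 passed, Tph1. At an unadjusted p of 0.05, 2 were higher and 1 lower. In all 8 were higher and 12 lower, and the median log2 fold change was -0.145 against -0.0183 over all genes. Kit ran from 408 to 1153 CPM in control and from 561 to 1269 CPM in expanded libraries. Ms4a2 stood at 948 ± 245 CPM in control (SD, n = 5) and 1053 ± 342 CPM in expanded libraries (SD, n = 4), Gata2 at 864 ± 317 and 1058 ± 563, and Cyp11a1 at 1257 ± 414 and 1173 ± 188. Hdc, for histamine, was at 2235 ± 886 and 1706 ± 460 CPM, and Slc18a2, which loads amines into granules, at 490 ± 111 and 409 ± 89.3. Rab27b, a docking factor for granules, Hs6st2, a heparin-modifying enzyme, Slc45a3, Maob, Mitf, Hpgds, Mrgprb1 and Ctsg had log2 fold changes between -0.432 and -0.0670.

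Tph1 (chr7:46644641-46672537) came nearest among the identity genes. It was at 802, 676, 416, 852 and 930.3 CPM in control and 1512, 2395, 1446 and 1943 CPM in expanded libraries. The groups did not overlap, and the arms differed by 1.26 ± 0.263 on the log2 scale (SE), for which edgeR gave an adjusted p of 0.0546. With the replicate block the difference was 1.39 (edgeR adjusted p = 0.0492), and the adjusted p ranged from 0.00130 to 0.182 over 21 alternatives. Tpsab1, the second tryptase, had 1.40 ± 0.411 (SE; adjusted p = 0.130), with 874.5 CPM in the expanded library of day 2, round 1, against 86.3 to 280 CPM elsewhere. Il1rl1, the interleukin-33 receptor, and Hs3st1 reached 204.5 and 476 CPM in that same library. Fcer1a was at 47.6 and 98.7 CPM in both round 1 libraries of day 2 and at 316 to 917 CPM in the other 7 tested. Mrgprb2 stood at -1.16 ± 0.438 (SE; adjusted p = 0.201), with 0 to 120 CPM in expanded libraries.

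Mediators were led by chemokines. Ccl7, which attracts monocytes, was at 9360 ± 1761 CPM in control (SD, n = 5) and 10280 ± 951 CPM in expanded libraries (SD, n = 4), and was found in 90.5% of mast cells and 40.3% of other immune cells. Ccl2, a related chemokine, was at 3456, 3012, 2782, 4157 and 2107 CPM in control and 3599, 5407, 4789 and 5203 CPM in expanded libraries. It was higher in 4 of 4 pairs, by 0.655 ± 0.248 on the log2 scale (SE; adjusted p = 0.204 by edgeR). Il4 and Il13 are type 2 cytokines of mast cells. Il4 was at 281 ± 273 CPM in control (SD, n = 5) and 96.7 ± 46.9 CPM in expanded libraries (SD, n = 4; adjusted p = 0.144), and Il13 at 297 ± 174 and 147 ± 41.2 CPM (adjusted p = 0.225). Il6, at 242 CPM and 343 CPM, and Tnf, at 225 CPM and 165 CPM, overlapped between arms. Of 19 cytokines and growth factors tested, none passed with edgeR or DESeq2, 11 were higher and 8 lower (1 and 3 at an unadjusted p of 0.05), and their median log2 fold change was 0.174.

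Granule, receptor and signalling lists had no called member by edgeR or DESeq2. Among 8 other granule proteases the median was 0.0863, among 11 genes of serglycin, heparin synthesis and granule membranes -0.0521, among 19 surface receptors -0.177 and among 17 genes downstream of the IgE receptor and KIT -0.0326. In the last list, Fyn, a SRC-family kinase, was at -1.08 (adjusted p = 0.1000) and Nfatc1, a calcium-dependent factor, at -1.05 (adjusted p = 0.106). Srgn, the serglycin core, ran from 1946 to 4256 CPM and from 1910 to 4284 CPM. Ptgs2, for prostaglandin synthesis, spread from 249 to 956 CPM in control and from 183 to 2322 CPM in expanded libraries.

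Immediate early genes respond to stimulation within minutes, and NF-kappaB feedback genes damp the pathway. Of 21 immediate early genes tested, 16 were lower and 5 higher (6 and 1 at an unadjusted p of 0.05), and the median was -0.438. Without the replicate block edgeR called none. With it Egr2 passed, and DESeq2 called Egr2, Egr3 and Klf4, 3 of 21 where it called 0.846% of all genes lower. Egr2, an early growth response factor, was at 50.3 to 262 CPM in control and 0 to 42.3 CPM in expanded libraries (-2.15 ± 0.462 on the log2 scale, SE; adjusted p = 0.0551 by edgeR, and 0.0492 with the replicate block), and Egr3 stood at -1.37 (adjusted p = 0.0684). Fos, at 6375 CPM and 5158 CPM, and Jund, at 3274 CPM and 3430 CPM, overlapped. Without the expanded library of day 2, round 1, 11 were lower, 10 higher and the median was -0.0353. All 7 NF-kappaB feedback genes tested were lower, Nfkbia being the one called, with a median of -0.655. Without that same library 5 were lower and 2 higher, none was called and the median was -0.484. In other immune cells the medians with all libraries were -0.265 for the immediate early and 0.184 for the NF-kappaB feedback genes.

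Heat shock and cold-inducible genes report on temperature and stress. The cold-inducible RNA-binding protein gene Rbm3 was at 577 ± 61.3 CPM in control (SD, n = 5) and 1219 ± 168 CPM in expanded libraries (SD, n = 4; difference 1.098 ± 0.232 on the log2 scale, SE; adjusted p = 0.0546 by edgeR), and the change was 1.09 in other immune cells. Cirbp, its relative, stood at 1.08 and 1.14. Of 12 genes tested in mast cells, 7 were lower and 5 higher, with Hspa1a called.

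Many small differences of 1 direction lay in ribosomal protein genes, a list chosen after the values were seen and given without a test. They took 10.0, 12.6, 9.73, 12.4 and 14.1% of mast-cell UMIs in control libraries. In expanded libraries they took 15.6, 18.9, 16.7 and 16.5%, and 20.8% in the library with 5 mast cells. All expanded libraries lay above all control libraries. Of 79 such genes tested, 78 were higher and 1 lower, with a median log2 fold change of 0.537. Other immune cells held 12.9 to 14.7% in control and 12.4 to 15.8% in expanded libraries, where 74 of the same genes were lower and 5 higher, with a median of -0.110. With other size factors the mast-cell count was the same and the median 0.528. Nuclear genes of the respiratory chain, chosen in the same way, were higher for 59 of 64 in mast cells (median 0.525) and for 56 of 64 in other immune cells (median 0.193). UMIs per mast cell moved with these values in 4 of 5 pairs. With cells under 1000 UMIs left out and the others thinned to 1000, 77 of 78 ribosomal genes were higher with a median of 0.520. So were 41 of 43 respiratory genes, with a median of 0.546.

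**Figure D4:**
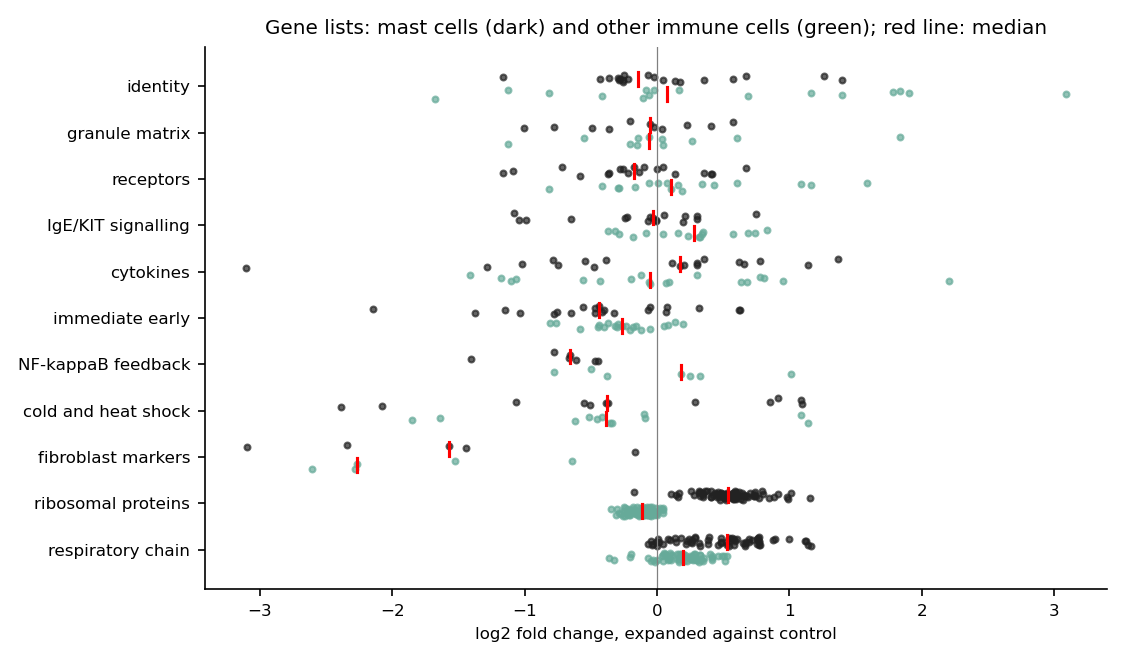
Log2 fold change of expanded against control skin for each gene tested in mast cells (dark points) and for the same gene in other immune cells (green points), by gene list. Red lines are medians. Of 79 ribosomal protein genes, 78 lie above 0 in mast cells (median 0.537) and 74 below 0 in other immune cells (median -0.110).

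Whether a change was particular to mast cells was tested as the interaction of arm and cell group, with the library as block. Of 12146 genes, 57 differed (0.469%), 19 with the higher change in mast cells (0.156%) and 38 with the lower (0.313%). Among the 6 genes called in mast cells, 3 differed: Ctla2a by 2.10 (edgeR adjusted p = 0.000652), Nfkbia by -1.69 (adjusted p = 0.000972) and Slc5a3 by -2.10 (adjusted p = 0.00577). In other immune cells these stood at -0.385, 0.324 and -0.146. Spns1, Apoe and Hspa1a did not pass (adjusted p = 0.278, 0.911 and 0.917). Without the expanded library of day 2, round 1, the difference for Ctla2a was 1.27 with an adjusted p of 0.169. Slc5a3 lost its call without the expanded library of day 1, round 2 (-1.82, adjusted p = 0.0644), when the day 2, round 1 control library was left out (-1.86, adjusted p = 0.0775), and after thinning to 1000 UMIs per cell (-2.31, adjusted p = 0.122).

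Several listed mediators and enzymes of mast cells also differed. Ccl2 differed by 1.71 (edgeR adjusted p = 0.000972), at 0.655 in mast cells and -1.18 in other immune cells. Il4 differed by -2.77 (adjusted p = 0.000395), at -1.29 and 2.20. Hdc differed by -3.24 (adjusted p = 9.05e-12), at -0.288 in mast cells and 3.09 in other immune cells, where it is also made by other granulocytes. Slc18a2 (-2.10), Cyp11a1 (-1.81), Il1rap (-1.88) and Isg15 (-1.75) differed in the same direction. In mast cells these stood at -0.292, -0.0216, -1.085 and -0.589, in that order. In other immune cells they stood at 1.78, 1.90, 1.085 and 1.07. Of 15 alternatives, the difference passed in 15 for Slc18a2, in 13 for Cyp11a1, in 12 for Il1rap and in 9 for Isg15. Without the expanded library of day 2, round 1, Cyp11a1 stood at -1.46 (adjusted p = 0.124), Il1rap at -1.30 (adjusted p = 0.427) and Isg15 at -1.72 (adjusted p = 0.0855). The call was also lost without the day 4 expanded library for all 3 (adjusted p = 0.0680, 0.0773 and 0.223), without the round 1 control library of day 1 for Il1rap (adjusted p = 0.0991), and without the round 2 control library of day 1 or the control library of day 4 for Isg15 (adjusted p = 0.158 and 0.384). Isg15 further lost it without called doublets (adjusted p = 0.189) and in members with under 1% other-lineage UMIs (adjusted p = 0.101). The pool of other immune cells mixes many types. S100a8, a neutrophil gene, was 4.65 higher there on the log2 scale in expanded skin (edgeR adjusted p = 0.00356). Of 16 mast cell identity genes tested in that pool, 8 were higher and 8 lower, with Gata2 at 1.40, Ms4a2 at 1.16 and Maob at -1.68. The part of such shifts in these differences was not tested.

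Mast cells also varied among themselves within each library. The 25% of cells with the highest protease share in each of the 9 libraries, 138 cells with a median share of 5.42%, were set beside the other 406, with 2.08%. Depth was similar, at medians of 1675 and 1875 UMIs. As the split uses the rule's own genes, the values are a description. Of 206 listed genes with at least 50 UMIs, 14 were higher and 14 lower in at least 8 of 9 libraries. Srgn was at 4495 ± 1700 CPM in the protease-rich cells and 2579 ± 790 CPM in the others (SD, n = 9 libraries), higher in 9 of 9 libraries. Mrgprb1 (1517 and 735 CPM), Fcer1g, the signalling chain of the IgE receptor (2544 and 1232 CPM), and Mlph, a granule-transport linker (85.4 and 35.6 CPM), were higher in 9 of 9 as well. Cma2 (1612 and 522 CPM), counted among the 14, was also higher in 9 of 9. Its reads may be split uncertainly with those of Cma1, a gene of the split, so its value is not independent of the split.

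Most immediate early genes had lower means in the protease-rich cells, though few were lower in nearly every library. Of 22 with at least 50 UMIs, 17 had a lower and 5 a higher mean in the protease-rich cells, with a median ratio of 0.826 against 0.986 over all 206 genes, and 2 were lower in at least 8 libraries. Egr1, at 4606 and 3550 CPM, and Egr3, at 711 and 426 CPM, were higher in 7 of 9 libraries, while Ier2 stood at 823 and 801 CPM. Of 10 NF-kappaB feedback genes 6 had a higher and 4 a lower mean, and Nfkbia was at 1230 and 1174 CPM. Klf4, an early-response factor, was at 469 CPM in them and 1241 CPM in the other mast cells, and Cxcl1, a neutrophil chemokine, at 23.0 and 132 CPM, both lower in 9 of 9 libraries. Nr4a1 was at 699 and 1333 CPM and Cebpb at 220 and 463 CPM, lower in 8 of 9. Ctsl, the cysteine protease cathepsin L, was at 20.9 and 128 CPM, and Socs3, a feedback inhibitor of cytokine signalling, at 22.3 and 74.96 CPM, each lower in 8 libraries and higher in none. Ccl8 (35.7 and 383 CPM) and Il1b (9.23 and 105 CPM), both abundant in macrophages, and the interferon-induced Ifitm3 (41.4 and 200.1 CPM) also had lower means, in 4, 6 and 6 of 9 libraries. The part of RNA from other cells in this split was not tested. Kit, at 1012 and 875 CPM, and Hdc, at 1691 and 2112 CPM, were higher in 6 and 2 of 9 libraries.

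**Figure D5:**
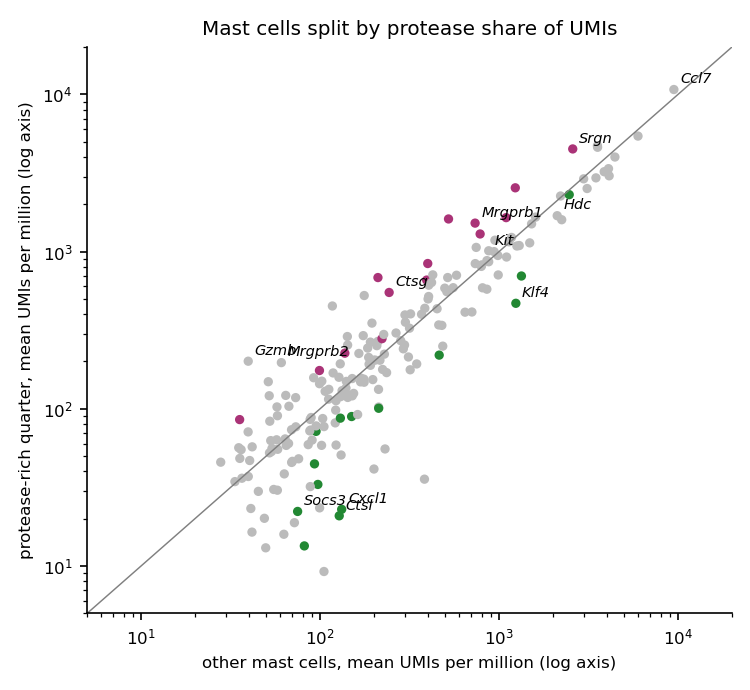
Mean UMIs per 1000000 over 9 libraries in the 25% of mast cells with the highest protease share (vertical, log axis) and in the other mast cells (horizontal, log axis), 1 point per listed gene. Purple marks genes higher and green genes lower in at least 8 libraries. Srgn and Mrgprb1 lie above the line of equality and Klf4 and Cxcl1 below it.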

How the data were processed

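Raw UMI counts per gene and cell of 10 mRNA libraries and antibody counts of 8 hashing libraries were read from the matrices deposited by the authors, who used Cell Ranger 6.1.2 with mm10 per the submitters' processing notes; the annotation is not given in the sources used here. Barcodes passed with 200 or more genes, 500 or more UMIs and a mitochondrial share of 10% or less. The mast cell rule, the gene lists and the tests were chosen with earlier results of these data known. Other immune cells were all non-members with at least 3 UMIs from at least 2 of Ptprc, Coro1a, Laptm5, Cd52, Tyrobp and Fcer1g. Mice were assigned with HTODemux (Seurat 5.3.0, quantile 0.99), and doublets were called with Scrublet in scanpy 1.11.5 and by hashtags but were kept in the main results. Shares were compared with exact permutation tests, or with 100000 resamples over all days.

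UMIs were summed per library with at least 10 mast cells and tested with edgeR 4.0.16 in R 4.3.3 (filterByExpr, TMM, quasi-likelihood test, Benjamini-Hochberg adjustment), with DESeq2 1.42.0 as an alternative. CPM values are UMIs per 1000000 summed UMIs. A library is a pool of mice in a single reaction, so p-values measure the spread between such pools. Day and sequencing round, a batch in the labels, pair the libraries: deviations of the 2 rounds' pairs on day 1 correlated at 0.113 over 2369 genes (Pearson's r across genes). Named genes were those called that moved alike in every pair (at most 12 per direction), called genes on a list, the 4 proteases and the 20 identity genes; others were named after their values were seen. Alternatives were other size factors, no filter, other rule thresholds, doublets left out, thinning to 1000 UMIs, DESeq2, the replicate block, mice as samples, and leaving out libraries. Thinning left out cells under 1000 UMIs. In simulated counts for 2369 genes of the mast cell comparison with 200 changed, 93% of genes changed by 2 on the log2 scale and 24% of those changed by 1 were recovered, with 4 unchanged genes called. Gene positions are from GENCODE M21.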

Additional observations from a re-analysis of the deposited data

Results flagged for a closer look

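Single libraries or mice stood apart in 4 of 26 groups examined, by the gap to the nearest other value as a share of the group's range; chance sets apart about 1 in 20 groups. Among the day 4 control mice, 1 held 1.76% mast cells, while the other 3 held 0.323 to 0.518%. Among expanded libraries, Nfkbia was highest on day 2, round 1, at 804 CPM, and Mcpt4 was highest in the same library, at 11760 CPM. Slc5a3 was lowest in the expanded library of day 1, round 2, at 9.66 CPM, where the mice with at least 5 mast cells gave 0 and 1 UMI.

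The change with expansion differed between mast cells and other immune cells of the same libraries for 3 of the genes called in mast cells, by the interaction test in edgeR. On the log2 scale, the change in mast cells minus that in other immune cells was 2.10 for Ctla2a (adjusted p = 0.000652), -1.69 for Nfkbia (adjusted p = 0.000972) and -2.10 for Slc5a3 (adjusted p = 0.00577).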

How the results depend on the processing

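The difference in share per library turned from -0.195 to 0.134 percentage points with cells under 1000 UMIs left out and the others thinned to 1000. It lay between -0.533 and 0.0398 when 1 library was left out. It was 0.0398 without control day 2 replicate 1 and 0.0286 without expanded day 2 replicate 2. As a replicate block (paired libraries) it was -0.195 (exact sign-flip permutation p = 0.375). The day 2 difference per mouse was -0.563 after thinning, -0.838 without round 1 and -1.73 without round 2, none past the threshold. The difference over all days was -0.208 after thinning, -0.366 without day 2 and -0.662 with mice assigned by the ratio of hashtags, none past the threshold.

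Against 6 genes called in mast cells, 61 were called with no filter, 33 without called doublets, 12 after thinning, 36 by DESeq2, 11 with the replicate block, 166 of 630 with mice as samples, and 0 to 11 when 1 library was left out (0 without expanded day 2 replicate 1, 11 without control day 2 replicate 2). Mice of an arm and round share a reaction, so that count rests on samples that are not independent. Chosen after seeing the data, all 10 libraries gave 3 and members under 1% other-lineage UMIs gave 37. With no filter, without doublets, by DESeq2 and with the replicate block the 6 were among those called; 2 of them were after thinning, 4 with mice as samples and 5 in members under 1% other-lineage UMIs. Against 57 genes that differed from other immune cells, 31 did after thinning, and 39 to 80 when 1 library was left out. Of 413 refits of named genes, none changed direction, 56 lost a call and 27 gained one.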
